A study of Mus musculus with 12 samples.

Results

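Globin genes encode the chains of haemoglobin, and 7 mouse globin symbols were followed through single blood stem cells of 3 tissues. The list held the embryonic chains Hbb-y, Hbb-bh1 and Hba-x and the adult chains Hba-a1, Hba-a2, Hbb-bt and Hbb-bs. Rows were matched by symbol in 12 tables of UMI counts (unique molecular identifiers, 1 per captured RNA molecule) that together held 22307 gene symbols. Rows of 6 of the 7 symbols were matched, and Hba-x is not analysed here. A row stood in a plate's table only where the gene had a UMI there, so a missing row was read as 0.

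The cells were labelled HSC (haematopoietic stem cells), and the series is titled as work on a mouse line for lineage tracing. Single cells were sorted into 96-well plates and their cytoplasmic RNA was sequenced after removal of the nuclei. Of the 12 plates, 2 came from AGM (the aorta-gonad-mesonephros region of the embryo), 5 from fetal liver and 5 from bone marrow. The filter kept 1020 of 1152 wells, namely 143 from AGM plates, 454 from fetal liver plates and 423 from bone marrow plates. No treatment, genotype, age or sort marker was given for any group. Codes in the titles put both AGM plates in 1 origin, fetal liver plates 1 to 3 and plates 4 and 5 in 2 origins, and bone marrow plates 1 to 3 and plates 4 and 5 in another 2. For bone marrow plates 4 and 5 the tissue stood in the titles only. The fetal liver codes share their main number and differ only in a suffix, whereas the bone marrow codes differ in the main number. Whether a code is 1 animal or a pool was not stated, and for AGM the tissue cannot be told apart from its single origin.

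In the mouse, the first red cells of the yolk sac carry embryonic globins, and the definitive red cells made later in the fetal liver and bone marrow carry adult ones. Each haemoglobin holds alpha-like and beta-like chains, encoded in separate clusters on different chromosomes. Blood stem cells are not red cells and make haemoglobin only in descendants that have entered the erythroid lineage, although low globin RNA is often counted in single-cell libraries of blood tissues.

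Plates held 2596681 to 15977740 UMIs, and the median UMIs of a kept cell were 159228 for AGM, 54303 for fetal liver and 59558 for bone marrow. AGM plate 2 lost 48 of its 96 wells to the filter, and fetal liver plate 5 had the fewest UMIs per detected gene, a median of 7.77 against 13.3 to 45.5 in the other plates. The blood stem cell list had 9 or 10 of its 10 markers with a UMI in every plate, at a summed 1077 to 1732 CPM (UMIs per 1000000 UMIs of the kept cells). Of 14 erythroid markers, Ahsp, Rhd and Car1 had no UMI in any tissue, Alas2 stayed at or below 2.01 CPM in every plate, and Hemgn had 4.38 to 78.9 CPM. Car2, which is also used outside red cells, led that list's sum with 208.2 to 1451 CPM. All plates used the same 96 well barcodes, which name a well and not a cell.

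The beta-like genes lie on the minus strand of chromosome 7 in GRCm38, Hbb-y at chr7:103851749-103853216, Hbb-bh1 at chr7:103841637-103843164, Hbb-bs at chr7:103826534-103828096 and Hbb-bt at chr7:103812524-103813996. Hba-a1 at chr11:32283511-32284465 and Hba-a2 at chr11:32296489-32297298 lie on the plus strand. All are protein-coding in the GENCODE annotation. The 120 bases before the RefSeq start (build GRCm38.p6) are shown for the embryonic gene and the adult pairs, because the levels of Hbb-bt and Hbb-bs parted below while their promoters and transcripts are close, and because UMIs of the alpha pair can hardly be assigned. They were read at chr7:103853208-103853327, chr7:103813924-103814043 and chr7:103827929-103828048 on the minus strand and at chr11:32283552-32283671 and chr11:32296372-32296491 on the plus strand. Capitals mark CCAAT (a motif of NF-Y), CACCC (of Kruppel-like factors), GATAA (of GATA factors) and the TATA-box letters TATAA on the strand shown, and ATTGG, which is the first motif on the other strand.
Hbb-y: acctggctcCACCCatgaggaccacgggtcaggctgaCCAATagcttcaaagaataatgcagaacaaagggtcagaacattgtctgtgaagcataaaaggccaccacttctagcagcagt
Hbb-bt: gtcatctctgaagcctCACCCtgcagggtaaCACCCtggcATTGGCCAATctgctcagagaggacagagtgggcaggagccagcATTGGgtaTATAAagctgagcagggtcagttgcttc
Hbb-bs: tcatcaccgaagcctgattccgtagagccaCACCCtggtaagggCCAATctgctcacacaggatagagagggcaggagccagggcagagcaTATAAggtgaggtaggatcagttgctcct
Hba-a1: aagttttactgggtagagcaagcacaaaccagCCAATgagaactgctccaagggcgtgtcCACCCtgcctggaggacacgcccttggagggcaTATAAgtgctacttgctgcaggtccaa
Hba-a2: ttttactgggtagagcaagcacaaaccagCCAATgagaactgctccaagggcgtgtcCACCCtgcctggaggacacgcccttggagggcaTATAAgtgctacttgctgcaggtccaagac
Both strands were searched. Hbb-bt held 3 CCAAT motifs, of which 2 abut, and 2 CACCC motifs, and Hbb-bs held 1 of each. Over all 32851 promoter windows of that length, CCAAT was present in 21.3%, CACCC in 31.7%, GATAA in 10.5% and TATAA in 11.8%, on either strand. The windows of Hbb-bt and Hbb-bs matched at 77.1% of 118 aligned bases, whereas those of Hba-a1 and Hba-a2 shared a run of 117 bases. These matches describe letters and not bound sites.

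The near-identity of the adult pairs bears on every value below. The Hba-a1 and Hba-a2 transcripts matched at 99.8% of aligned bases, and 32.5% of the 50-base stretches of Hba-a1 and 13.1% of those of Hba-a2 occurred in no other transcript. The Hbb-bt and Hbb-bs transcripts matched at 92.8%, with 41.7% and 34.2% of their stretches unique. All stretches of Hbb-y and Hbb-bh1 were unique. How reads that fit both copies were counted was not stated in any label or header used, and the split within each adult pair is uncertain.

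Across the plates, embryonic beta-like RNA was counted in AGM and hardly elsewhere, adult alpha RNA in fetal liver and bone marrow and hardly in AGM, and Hbb-bt in every plate. The plot of plate levels shows these 3 patterns. In all 3 comparisons the 6 genes passed the low-count filter, Hbb-y and Hbb-bh1 only through AGM and Hba-a1 only through fetal liver and bone marrow. In sums over cells, fewer cells with a transcript and less RNA per cell cannot be told apart, and the cell-level values are therefore given beside the sums.

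**Figure D1:**
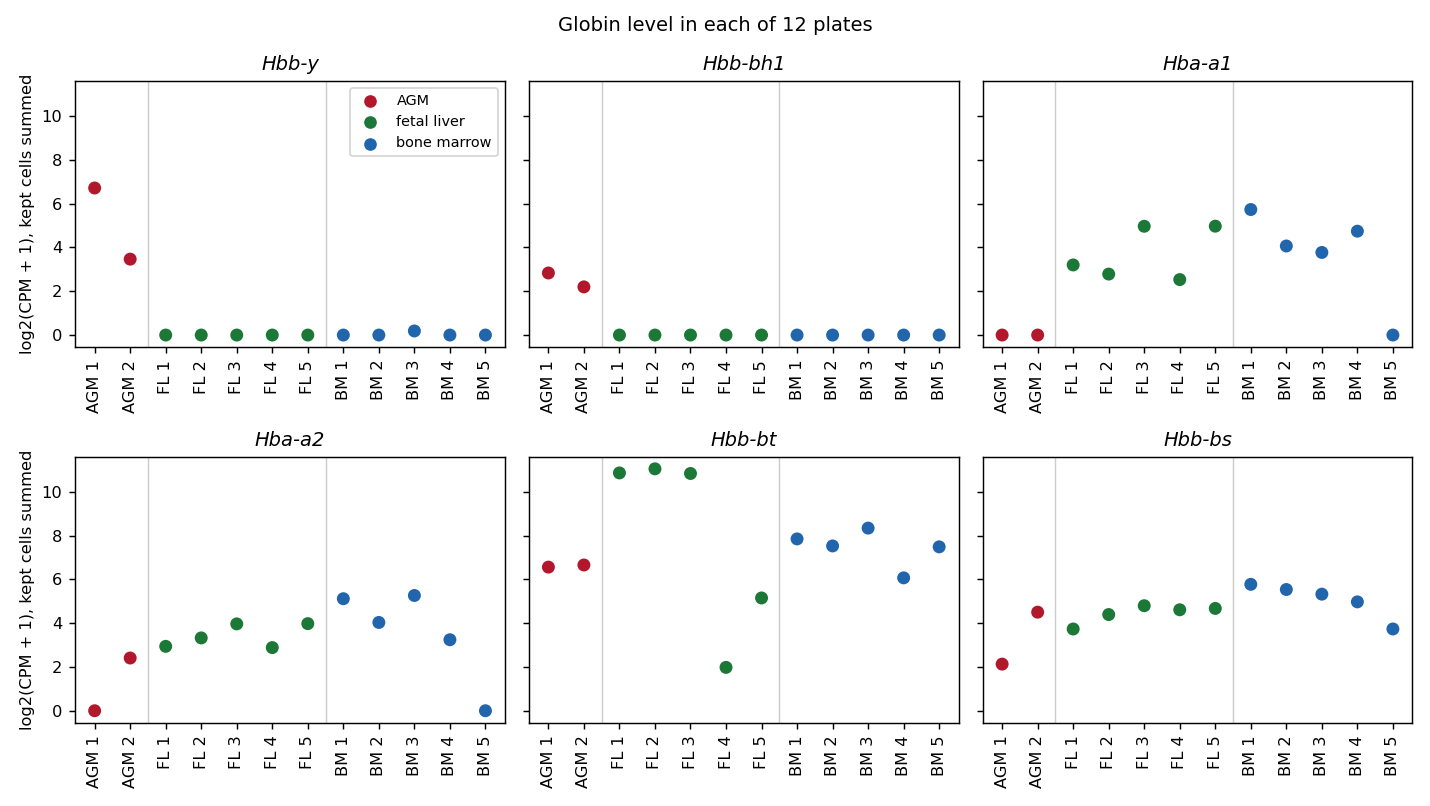
Level of each globin in each of the 12 plates, as log2 of CPM + 1 over all kept cells of a plate (1 point per plate; FL, fetal liver; BM, bone marrow; no error bars, 1 value per plate). Hbb-y and Hbb-bh1 lie above 0 in both AGM plates, Hba-a1 lies at 0 in both, and Hbb-bt splits into fetal liver plates 1 to 3 at 1831 to 2122 CPM and plates 4 and 5 at 2.95 and 34.6 CPM.

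Hbb-y encodes the epsilon-y chain, an embryonic beta-like chain of primitive red cells. It had 1666 UMIs in AGM plate 1 and 84 in AGM plate 2, at 104.3 and 10.1 CPM. It had no UMI in the 454 fetal liver cells, which allows up to 0.661% of cells with a UMI (3 of the cells counted, the floor used for every count of 0), and 1 UMI in bone marrow, in plate 3. Both AGM plates thus lay above all others, with plate 1 far above plate 2. A UMI was found in 94 of 95 cells of plate 1 and in 8 of 48 cells of plate 2. After thinning every cell to 20000 UMIs, the share was 60.0% in plate 1 and 4.35% in plate 2.

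Within AGM plate 1 the level was even in most cells. The median cell had 7 UMIs and 45.7 CPM, and the quartiles lay at 34.8 and 58.2 CPM. Above this stood 1 cell with 751 UMIs (3241 CPM) and another with 170, and the next had 30. UMIs of Hbb-y went with the depth of the cell (Spearman rho 0.70 over 95 cells of 1 plate, a description only). In plate 2 the top cell had 74 UMIs, the next 4, and 6 cells had 1 each. The AGM wells that failed the cell filter had no Hbb-y UMI, but their 4534 UMIs in all could show no level under 662 CPM, so background in wells without a cell was not measurable there.

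**Figure D2:**
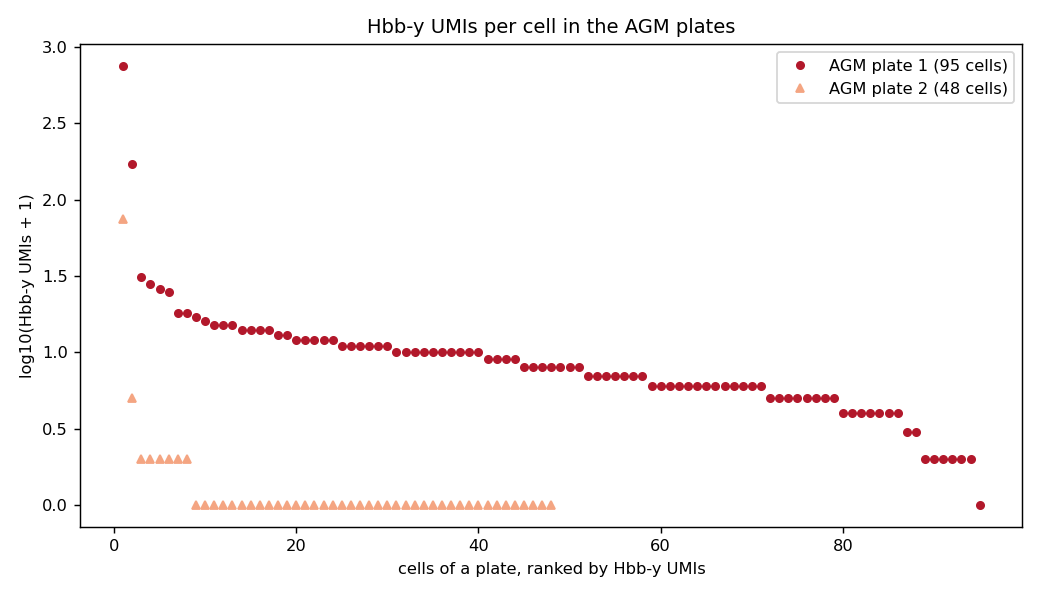
Hbb-y UMIs of every kept AGM cell, as log10 of UMIs + 1 on the y axis, with the cells of a plate ranked from highest to lowest on the x axis (1 point per cell, 95 cells of plate 1 and 48 of plate 2). In plate 1 a plateau around 7 UMIs runs under 2 high cells, and in plate 2 only 8 cells lie above 0.

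Hbb-bh1 encodes another embryonic beta-like chain, beta-h1. It had 98 UMIs in AGM plate 1 and 30 in AGM plate 2, at 6.13 and 3.59 CPM, and none in fetal liver or bone marrow. In plate 1 the gene was seen in 17 cells, 1 with 79 UMIs and 16 with 1 or 2. In plate 2 it was seen in 8 cells, and the top cell held 19 UMIs. The top Hbb-y cell of plate 1 had 1 UMI of Hbb-bh1, and the top Hbb-bh1 cell had 24 UMIs of Hbb-y. The high cells of the embryonic chains were therefore different cells in both plates, since the top Hbb-bh1 cell of plate 2 had no Hbb-y UMI.

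Hba-a1 and Hba-a2 encode the adult alpha chain. Hba-a1 had no UMI in either AGM plate, whereas the 5 fetal liver plates had 54, 30, 147, 39 and 103 UMIs and the 5 bone marrow plates 517, 119, 92, 67 and 0. The fetal liver levels were 8.21, 5.89, 30.3, 4.79 and 30.4 CPM, and the bone marrow levels were 52.2, 15.8, 12.7, 25.8 and 0 CPM. Hence every fetal liver plate lay above both AGM plates, bone marrow plate 5 was level with AGM, and fetal liver and bone marrow overlapped. A count of 0 in 143 AGM cells allows up to 2.10% of cells with a UMI.

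Hba-a2 had 0 and 36 UMIs in the AGM plates, 33 of them in 1 well. It had 44, 46, 71, 52 and 50 UMIs in the fetal liver plates, at 6.39 to 14.8 CPM, and 334, 116, 272, 22 and 0 in the bone marrow plates, at 0 to 37.5 CPM. Every fetal liver plate lay above both AGM plates, and the bone marrow plates lay on either side of fetal liver, with no alpha UMI among the 80 kept cells of bone marrow plate 5. Alpha RNA sat in few cells. Of the bone marrow cells 9.22% had a Hba-a1 UMI (exact 95% interval 6.64 to 12.4%), and of the fetal liver cells 17.2% did (13.8 to 21.0%). These intervals pool the cells of all plates and cover counting error only. By plate the shares ran from 0 to 18.9% in bone marrow and from 8.70 to 46.1% in fetal liver, so the tissues overlapped. Thinned to equal depth the pooled shares were 4.85% in bone marrow and 10.98% in fetal liver. In fetal liver plate 5, 46.1% of cells had a Hba-a1 UMI and 29.2% a Hba-a2 UMI, against 8.70 to 13.4% and 6.10 to 11.96% in the other fetal liver plates. Most of these cells had 1 or 2 UMIs.

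Hbb-bt and Hbb-bs encode the adult beta chains. Hbb-bt had 93.5 and 100.045 CPM in the AGM plates. It had 1864, 2122 and 1831 CPM in fetal liver plates 1 to 3 and 2.95 and 34.6 CPM in fetal liver plates 4 and 5. In the bone marrow plates it had 229.8, 183.8, 324.0, 66.2 and 178.5 CPM. Fetal liver thus held both the highest and the lowest plates of the series, on either side of all AGM and bone marrow plates.

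The division within fetal liver followed the origin code. Summed by origin, Hbb-bt had 1934 CPM in plates 1 to 3 and 12.2 CPM in plates 4 and 5, a ratio of 158 (exact 95% interval 134 to 188, counting error only). By log2 of CPM + 1 this was the widest difference between the fetal liver origins among 15472 genes, of which 14 (0.0905%) differed by over 10-fold. With 1 origin on each side there is no replicate check. The other adult globins did not share it. Hbb-bs had 19.0 CPM in plates 1 to 3 and 23.8 CPM in plates 4 and 5, Hba-a1 14.0 and 12.3 CPM, and Hba-a2 9.75 and 8.85 CPM.

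Every kept cell of fetal liver plates 1 to 3 carried Hbb-bt, 95 of 95, 96 of 96 and 82 of 82. Their medians were 122, 92.5 and 84.5 UMIs per cell, and no cell lay below 116 CPM. In plates 4 and 5, 4 of 92 and 46 of 89 cells had a UMI, and the highest cells had 14 and 28 UMIs. The 2 sets of plates thus differed across their cells and not through a few, as the plot of single cells shows. Hbb-bt at 10 UMIs or more was counted in 30 of 143 AGM cells, 258 of 273 cells of fetal liver plates 1 to 3 and 2 of 181 of plates 4 and 5, and in 65 of 262 and 16 of 161 bone marrow cells of plates 1 to 3 and plates 4 and 5.

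**Figure D3:**
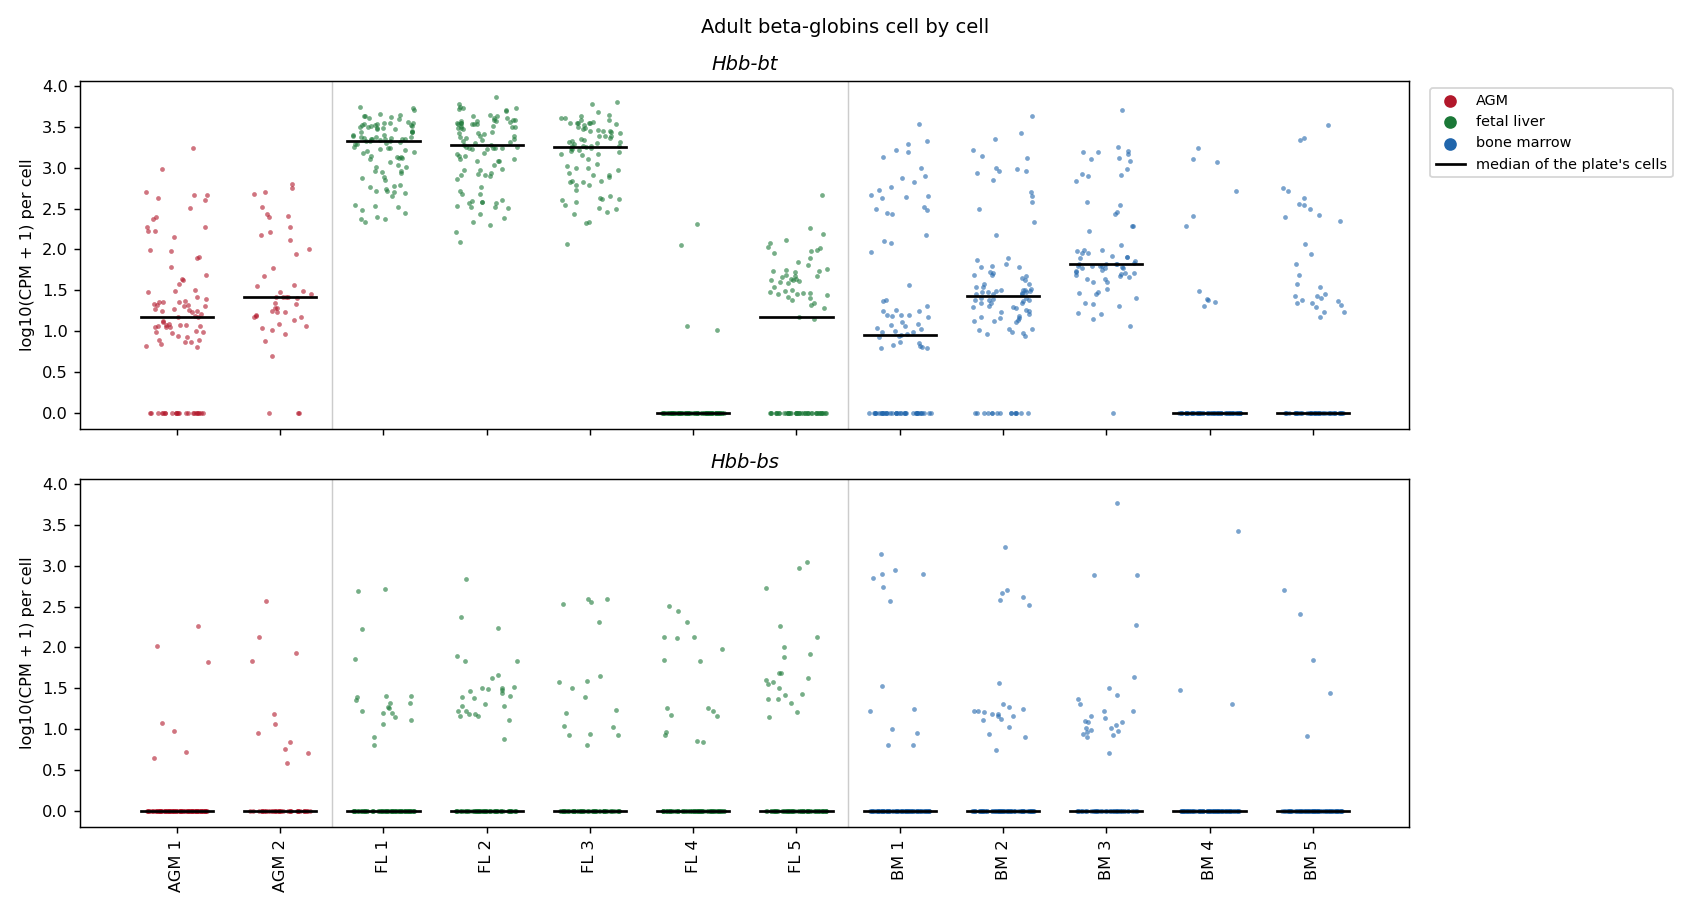
Hbb-bt (top) and Hbb-bs (bottom) in every kept cell of the 12 plates, as log10 of CPM + 1 (1 point per cell, bar at the median of the plate's cells; FL, fetal liver; BM, bone marrow). All cells of fetal liver plates 1 to 3 lie at 116 CPM or more for Hbb-bt, while the median cell is at 0 for Hbb-bs in every plate.

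Wells that failed the cell filter in the same plates also carried Hbb-bt. In fetal liver plate 3, 9 of 14 such wells held 120 Hbb-bt UMIs among 49249 UMIs, which is 2437 CPM, against 1831 CPM in that plate's kept cells. The most in 1 such well was 41 UMIs. Failing wells of fetal liver plates 4 and 5 had none among 10430 and 8517 UMIs. These are too few UMIs to show levels like the 2.95 and 34.6 CPM of the kept cells there. In plate 3 the level per UMI was thus not lower in the failing wells than in the kept cells.

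Mitochondrial RNA moved with Hbb-bt over the plates. By the rule for like genes, the 5 genes with the highest Pearson correlation of log2(CPM + 1) with Hbb-bt over the 12 plates, among 13390, were mt-Nd3 (0.87), mt-Cytb (0.84), mt-Nd4 (0.84), mt-Nd2 (0.79) and mt-Nd1 (0.79), all encoded in the mitochondrial genome. For mt-Nd3, fetal liver plates 1 to 3 had 134, 167 and 162 CPM and plates 4 and 5 had 7.62 and 8.27 CPM. The median cell gave 0.157, 0.217 and 0.462% of its UMIs to mitochondrial genes in fetal liver plates 1 to 3, and 0.0956 and 0.0738% in plates 4 and 5. The part of mitochondrial RNA in the Hbb-bt difference was not tested. For Hbb-y the most alike genes were Ssu2, Casq1, Mest, Efnb3 and Palmd, with correlations of 0.997 to 0.998, and these too were highest in AGM plate 1 and next in AGM plate 2. Mest, for instance, had 25.8 CPM in AGM plate 1, 5.63 in AGM plate 2 and at most 0.123 elsewhere. The points share their plates and depth. Endothelial markers were also highest in AGM, where the 10 genes of that list summed to 1763 and 1387 CPM, against 381 to 521 CPM in fetal liver plates and 256 to 405 CPM in bone marrow plates, and their part in the Hbb-y level was not tested.

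Hbb-bs had 3.38 and 21.7 CPM in the AGM plates, 12.3, 20.04, 26.8, 23.5 and 24.5 CPM in the fetal liver plates, and 53.8, 45.5, 39.1, 30.4 and 12.3 CPM in those of bone marrow. AGM and fetal liver overlapped, and 4 of 5 bone marrow plates lay above every plate of the other tissues. Among these, bone marrow plate 4 owed its place to 1 well with 77 of its 79 UMIs, and had 0.779 CPM without it. A UMI was found in 12.6% of AGM cells, 23.6% of fetal liver cells and 16.8% of bone marrow cells. Thinned to equal depth these shares were 5.67%, 13.6% and 8.67%, and since their order is not that of the CPM, no order is read from them.

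In fetal liver against AGM, 2 of the 6 genes were called by edgeR's quasi-likelihood test at a Benjamini-Hochberg adjusted p under 0.05, where 4.83% of all 15472 tested genes were (2.92% higher, 1.91% lower). Hbb-y was at least 573-fold lower in fetal liver (adjusted p = 1.59e-06, edgeR). Hba-a1 was at least 127-fold higher (adjusted p = 0.000110, edgeR). Both bounds set 3 UMIs for the tissue without any. Since each gene passed the low-count filter through the tissue where it was high, the count of 2 is no support in itself, and AGM was 1 library. Both genes were also called with no low-count filter. The Hba-a1 bound also rests on the uncertain split within the alpha pair, as AGM had 36 UMIs of Hba-a2. Without AGM plate 1 the Hbb-y bound was 78.7-fold and its call was lost (adjusted p = 0.0828), and without the top globin cell of each origin it held (adjusted p = 0.000324).

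The other 4 genes did not pass in fetal liver against AGM. Hbb-bh1 was at least 41.9-fold lower in fetal liver (adjusted p = 0.225, edgeR). The log2 fold changes were 2.88 ± 1.10 for Hba-a2 (adjusted p = 0.172, edgeR) and 1.38 ± 0.59 for Hbb-bs (adjusted p = 0.245, edgeR), the error being the change divided by the square root of F. Hbb-bt had a log2 fold change of 3.58 ± 1.33 (adjusted p = 0.155, edgeR), and this rested on 1 origin. Without fetal liver plates 1 to 3 it was -2.75, and without plates 4 and 5 it was 4.58. Each of those fits has a single fetal liver library that is assumed to vary like the rest.

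In bone marrow against fetal liver, 0 of the 6 genes were called by edgeR, where 4.73% of all tested genes were (2.68% higher, 2.06% lower), and 1 of 6 had an unadjusted p under 0.05, where 16.6% of all tested genes did. DESeq2 and limma also called 0. In the other comparisons DESeq2 and limma called 2 and 3 of the 6 for fetal liver against AGM, and 4 and 4 for bone marrow against AGM. The limma fit took each plate as a library, with the origin as a random block. Its consensus correlation within an origin was -0.098, so plates of 1 origin were not held to be alike. Its counts are thus no like check on edgeR. Hbb-y and Hbb-bh1 had at most 1 UMI in both tissues together and get no fold. The log2 fold changes were 0.64 ± 0.60 for Hba-a1 (adjusted p = 0.653, edgeR), 0.81 ± 0.77 for Hba-a2 (adjusted p = 0.660, edgeR) and 0.67 ± 0.45 for Hbb-bs (adjusted p = 0.501, edgeR). For Hbb-bt the log2 fold change was -2.35 ± 0.94 (adjusted p = 0.194, edgeR). Without fetal liver plates 1 to 3 it turned to 3.95, in a fit with a single fetal liver library. The fetal liver origins differed 158-fold for this gene, so that library cannot stand for the tissue.

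In bone marrow against AGM, 3 of the 6 genes were called, where 8.92% of all tested genes were (5.29% higher, 3.63% lower). Hbb-y was lower in bone marrow, 1 UMI against 1750, a ratio of 1907 with an exact 95% counting interval of 342 to 75347 (adjusted p = 1.60e-06, edgeR). Without AGM plate 1 the ratio was 263.9 and the call was lost (adjusted p = 0.0942). Hba-a1 was at least 243-fold higher (adjusted p = 3.39e-05, edgeR). This bound too rests on the uncertain split within the alpha pair, with 36 Hba-a2 UMIs in AGM. Hbb-y passed the low-count filter only through AGM, and Hba-a1 only through fetal liver and bone marrow. AGM was 1 library, so the count of 3 is no support in itself.

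Hbb-bs was higher in bone marrow by a log2 fold change of 2.04 ± 0.61 (adjusted p = 0.0409, edgeR), but the call was lost in 15 of 27 alternatives. Leaving out single plates gave adjusted p from 0.00211 to 0.346, the highest without AGM plate 1, and the call was also lost without bone marrow plates 1, 2 or 4 or fetal liver plates 2, 3, 4 or 5. Hba-a2 missed the threshold with a log2 fold change of 3.68 ± 1.15 (adjusted p = 0.0503, edgeR). Hbb-bh1 was at least 46.5-fold lower in bone marrow (adjusted p = 0.177, edgeR), and Hbb-bt had a log2 fold change of 1.22 ± 1.16 (adjusted p = 0.591, edgeR). Hbb-bt was called higher in 6 of 27 alternatives, with log2 fold changes of 0.84 to 1.51.

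Adult alpha and beta RNA met in some cells and parted in others. Counts of 10 or more alpha UMIs were seen in 1 AGM cell, 16 fetal liver cells and 20 bone marrow cells, of which 1, 6 and 10 also had 10 or more of Hbb-bs. Of cells with 10 or more Hbb-bt UMIs, 22 of 30 in AGM, 166 of 258 in fetal liver plates 1 to 3, and 47 of 81 in bone marrow had no UMI of Hbb-bs or the alpha genes. These are 73.3%, 64.3% and 58.0% of the Hbb-bt-rich cells, beside 85.3%, 65.2% and 73.0% of all cells of the same plates, so the share without these chains was no higher in the rich cells. The top Hbb-bt cell of bone marrow plate 1 had 555 UMIs of it and 0 of Hbb-bs. Cells with at least 10 Hbb-bs UMIs held 7.60% (AGM), 2.76% (fetal liver) and 7.24% (bone marrow) of all Hbb-bt UMIs, and they were 4.90%, 3.74% and 4.49% of the cells. Most Hbb-bt UMIs were thus in cells with few or no Hbb-bs UMIs, as most cells were.

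**Figure D4:**
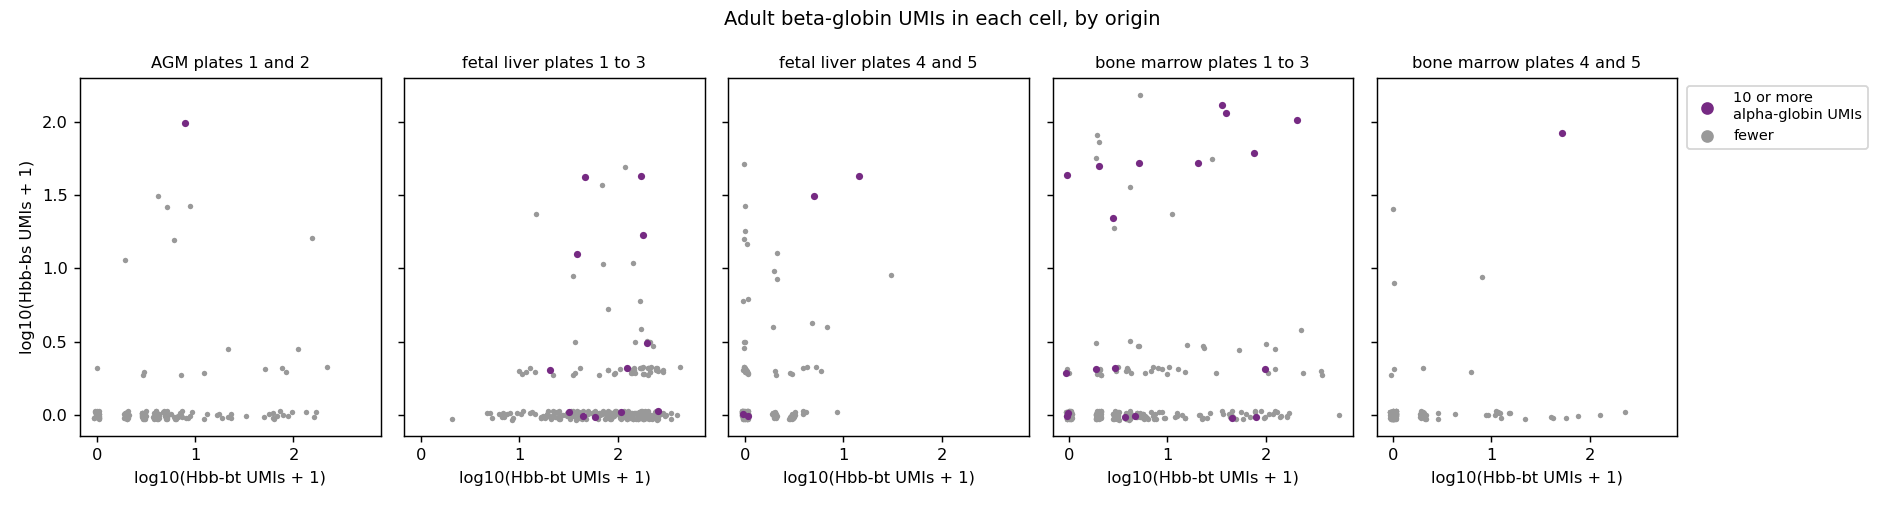
Hbb-bt against Hbb-bs UMIs in every kept cell of the 5 origins, both as log10 of UMIs + 1 with a small random shift so that equal counts can be seen (purple, cells with 10 or more alpha-globin UMIs). Most cells, those with high Hbb-bt included, lie along the bottom at 0 or 1 Hbb-bs UMI, and alpha-rich cells lie both there and at high Hbb-bs.

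The share of a gene's UMIs held by 1 well was measured as a sign of carry-over from single wells. The top well held 45.1% of the Hbb-y UMIs of AGM plate 1 (exact 95% interval 42.7 to 47.5%) and 88.1% of those of AGM plate 2 (79.2 to 94.1%). Genes with a total between 0.5 and 2 times that of Hbb-y had medians of 7.15% in plate 1 and 40.6% in plate 2. With the top well left out, Hbb-y was at 58.1 CPM in plate 1 and 1.23 CPM in plate 2, so in plate 1 most cells kept it and in plate 2 little was left. For Hbb-bh1 the top wells held 80.6% and 63.3%.

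Single wells also held large shares of the adult chains in bone marrow and fetal liver, except for Hbb-bt in fetal liver plates 1 to 3. Genes with a like total often had high shares too. Their median was 20.8% beside 21.2% for Hbb-bs in bone marrow plate 1, and 44.1% beside 25.6% for Hba-a1 in fetal liver plate 4. It was 27.5% for Hbb-bs in bone marrow plate 4. In bone marrow plate 4, 1 well held 64 of 67 Hba-a1, 21 of 22 Hba-a2 and 77 of 79 Hbb-bs UMIs, that is 95.5%, 95.5% and 97.5%, beside 50 Hbb-bt UMIs. Without it that plate had 1.17 CPM of Hba-a1 and 0.779 CPM of Hbb-bs. In the other plates with 20 or more UMIs the top well held 20.4 to 82.6% of Hba-a1 and 21.2 to 60.5% of Hbb-bs. Over all tissues, Hba-a1 lay above the median of genes with a like total in 8 of 9 plates, Hba-a2 in 9 of 10 and Hbb-bs in 11 of 12. They lay above 9 in 10 of those genes in only 2, 3 and 6 plates. The bone marrow plate 4 well had 1922 genes and would fail a stricter cell filter of 2000 genes. The top Hba-a1 wells of bone marrow plates 1, 2 and 3 had 1749, 2661 and 1749 genes, against plate medians of 2264, 2756.5 and 3317. Those of fetal liver plates 1 to 5 had 4423, 4485, 5487, 5019 and 3759 genes. The medians there were 4423, 3987, 3387, 4135.5 and 4497, so only the plate 5 well lay below its median. For Hbb-bt the top well held 2.77 to 4.51% in fetal liver plates 1 to 3, 58.3 and 23.9% in fetal liver plates 4 and 5, 12.8 to 38.2% in bone marrow and 15.1 and 17.8% in AGM. The Hbb-bt share was above the median of genes with a like total in 12 of 12 plates and above 9 in 10 of them in 5.

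Over the 47 pairs of gene and plate with 20 or more UMIs, 43 had a larger top-well share than the median of genes with a like total, and 19 a larger one than 9 in 10 of those genes. The 4 below the median were Hbb-bh1 in AGM plate 2, Hbb-bs in AGM plate 1 and both alpha genes in fetal liver plate 4. These shares describe wells of a plate, which are not replicates.

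**Figure D5:**
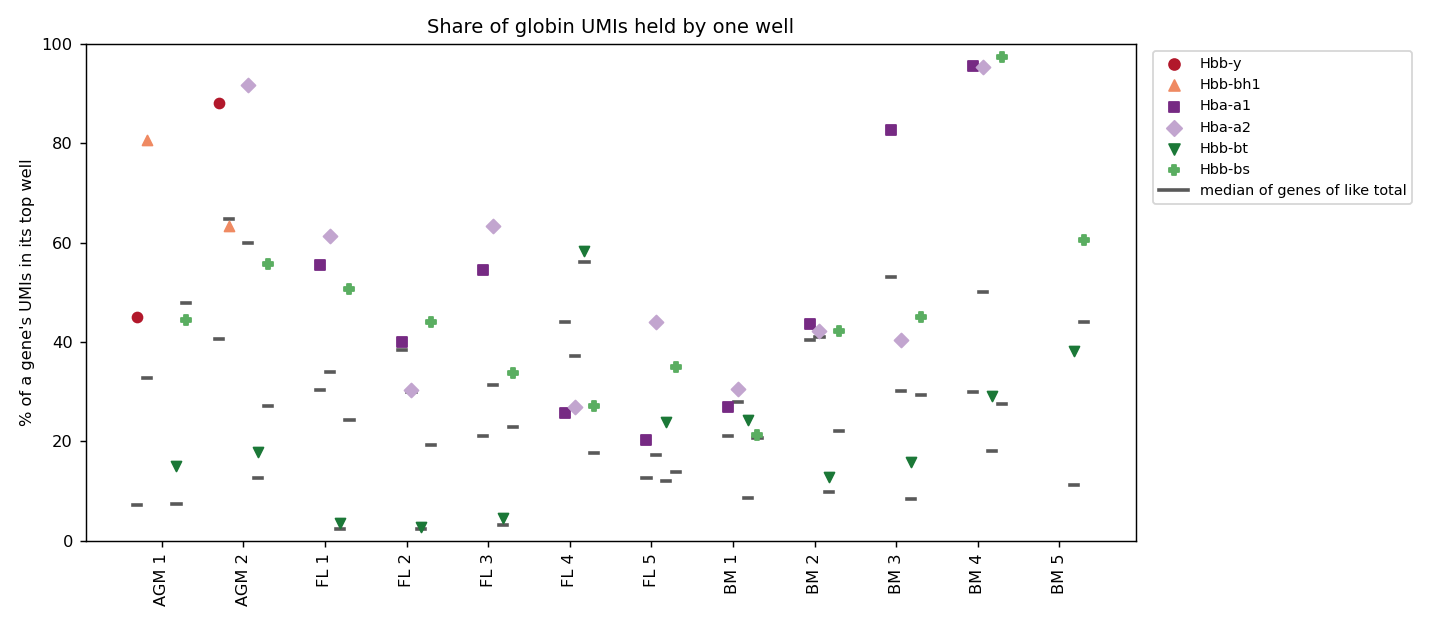
Percent of a globin's UMIs in a plate that its top well holds (symbols, 1 per gene and plate with 20 or more UMIs), beside the median of the same share over genes with a total within a factor of 2 in that plate (grey bars; FL, fetal liver; BM, bone marrow). Symbols lie above their bar in 43 of 47 cases, and Hbb-bt in fetal liver plates 1 to 3 lies at 2.77 to 4.51%.

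The make-up of globin UMIs was compared between the richest well and the other wells of a plate. In AGM plate 1 Hbb-y was 76.8% of the 978 globin UMIs of the richest well (74.0 to 79.4%) and 39.2% of the 2334 in the other wells (37.2 to 41.2%), with Hbb-bt at 23.0% and 54.4%. In bone marrow plate 4 Hbb-bs was 36.3% of 212 UMIs in the richest well and 1.56% of 128 in the others, where Hbb-bt was 95.3%. In bone marrow plate 1 Hbb-bt was 99.5% of 558 UMIs in the richest well and 55.5% of 3099 in the others. The make-up thus differed beyond counting error in these plates. Intervals of some globin also lay apart elsewhere, as for Hbb-bt in fetal liver plate 4 (11.2 to 30.9% and 2.06 to 7.69%), though only just in fetal liver plate 1. The richest well was chosen by its globin count, which favours an extreme make-up. In fetal liver plate 2 alone the intervals overlapped for every globin. Hbb-bt was 99.7% in the richest well there (98.2 to 99.99%) and 98.3% in the others (98.1 to 98.6%). The other wells are pooled, and their spread from well to well is not in these intervals. The share of carry-over in any level was not tested.

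Red cell markers were read in the cell of each plate with the most globin UMIs other than Hbb-bt. The number of erythroid markers found was above the median of the plate's other cells in 3 of 12 plates, equal to it in 8 and below it in 1, and their summed CPM was above the median in 6. The 3 cells above were those of AGM plate 2 (3 markers, Hemgn, Tfrc and Car2), fetal liver plate 3 (3, Hemgn, Klf1 and Car2) and bone marrow plate 2 (4, Slc4a1, Hemgn, Epor and Car2), each against a median of 1. The AGM plate 1 cell with 978 globin UMIs had UMIs of 2 of the 14 erythroid markers, Klf1 and Car2, equal to the median of 2 in the plate's other cells, and of 9 of 10 blood stem cell markers. The bone marrow plate 4 well had 1 erythroid marker, Car2, and 5 of 10 blood stem cell markers, both equal to the medians of the other cells. The erythroid list summed to 250 and 338 CPM for the AGM plates, 883 to 1178 CPM for fetal liver plates and 979 to 1503 CPM for bone marrow plates, most of it Car2. Within fetal liver, the list had 907, 883 and 971 CPM in plates 1 to 3 and 911 and 1178 CPM in plates 4 and 5, so it did not follow the Hbb-bt division. The part of red cell RNA in the globin levels was not tested.

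Genes that act on globins in red cells were read from the same fits. Of 22 tested globin gene regulators, 2 were higher and 3 lower in fetal liver against AGM, 4 higher and 1 lower in bone marrow against fetal liver, and 2 higher and 2 lower in bone marrow against AGM, beside 4.83%, 4.73% and 8.92% of all tested genes called in either direction. The median log2 fold changes were -0.36, 0.36 and 0.26, against 0.05, 0.00 and 0.04 over all tested genes. Igf2bp1, an RNA-binding protein of fetal cells, had 387.3 and 355.0 CPM in the AGM plates, 33.7 to 66.6 CPM in fetal liver plates and at most 0.385 CPM in bone marrow. It was lower in fetal liver than in AGM (log2 fold change -2.65 ± 0.32, adjusted p = 1.83e-05, edgeR) and lower in bone marrow than in fetal liver (adjusted p = 2.89e-10, edgeR). Lmo2, a bridge in the erythroid transcription complex, was higher in fetal liver than in AGM (log2 fold change 1.83 ± 0.26, adjusted p = 0.000119, edgeR) and in bone marrow than in fetal liver (0.93 ± 0.20, adjusted p = 0.00738, edgeR). Fetal liver plate 5 stood apart for Lmo2, with 83.6 CPM against 379 to 537 CPM in the other fetal liver plates.

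Bcl11a, which silences embryonic globins in the mouse, had 138.0 and 142.0 CPM in AGM, 86.2 to 162 CPM in fetal liver plates and 116 to 146 CPM in bone marrow plates, with all 3 tissues overlapping. Klf1, the erythroid activator of adult beta-globin, had 0 to 11.1 CPM in any plate and passed in no comparison. None of 13 haem synthesis genes was called in any comparison by edgeR. The shares of all tested genes given above, 4.83%, 4.73% and 8.92%, stand beside this count and those that follow. Of the 11 tested erythroid markers, Car2 was higher in fetal liver against AGM (log2 fold change 2.20 ± 0.31, adjusted p = 9.00e-05, edgeR), Hemgn was higher in bone marrow against fetal liver (1.84 ± 0.44, adjusted p = 0.0174, edgeR), and both were higher in bone marrow against AGM. Of 6 tested genes of chain balance and haemoglobin handling, 1, Blvrb, an enzyme of haem breakdown, was higher in bone marrow against fetal liver (1.09 ± 0.27, adjusted p = 0.0238, edgeR) and against AGM (1.27 ± 0.35, adjusted p = 0.0260, edgeR), and 0 were called in fetal liver against AGM. Outside the list, Hbq1a, a theta-globin gene, had 1 UMI in all kept cells.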

How the data were processed

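The authors deposited UMI counts per gene symbol and well, 1 table a plate, with no normalization. The submitters' processing notes name featureCounts, UMI-tools, SAMtools and mm10; their versions, the annotation and any strand option were not given in the sources used here. Wells with at least 1000 genes, 3000 UMIs and under 20% mitochondrial UMIs were kept (1020 of 1152). No doublet caller was run on these singly sorted cells. Intervals are exact binomial (95%) and, like the floor of 3 UMIs, cover counting error only; UMIs were thinned to 20000 per cell where stated.

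Kept cells were summed by origin into 5 libraries and compared by edgeR 4.0.16 (R 4.3.3), with TMM, filterByExpr and Benjamini-Hochberg adjustment over 15472 genes. The fit had 2 residual degrees of freedom, and the 1 AGM library was assumed to vary like the others; with unknown animals, p-values measure only the spread between these libraries. On simulated counts the fit recovered 67% of 200 genes changed 8-fold between fetal liver and AGM, with 11 false calls. A gene without a call may thus still differ. Alternatives used DESeq2 1.42.0 and limma 3.58.1. Bounds use TMM-scaled library sizes and other CPM plain ones. Tables were handled in Python 3.11.15 with pandas 2.3.3 and scipy 1.17.1.

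The members, the gene lists and the tests were chosen with earlier results of these data known. Named genes are the members, other globins, up to 4 called genes a list by smallest adjusted p, and the 5 genes most alike Hbb-y and Hbb-bt over plates, leaving out globins, predicted genes, Xist and Y-linked genes; Bcl11a, Klf1, Alas2, Ahsp, Rhd, Car1, Slc4a1, Epor and Tfrc were named after their values were seen. Plate numbers recur between tissues and carried no shared deviation (median correlation -0.01 over 15 same-numbered pairs).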

Additional observations from a re-analysis of the deposited data

Results flagged for a closer look

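In 24 groups of plates tested for a plate far from the others, 2 had one, both fetal liver plate 5. Chance sets apart about 1 in 20 such groups. The share of its cells with a Hba-a1 UMI was 46.1%, against 8.70 to 13.4% in the other 4 fetal liver plates. For Hba-a2 it was 29.2%, against 6.10 to 11.96%. The same plate had 30.4 CPM of Hba-a1, close to the 30.3 CPM of fetal liver plate 3, and its cells mostly had 1 or 2 UMIs, 33 of 41 for Hba-a1 and 24 of 26 for Hba-a2.

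The 132 wells that failed the cell filter enter no comparison, yet 3 adult globins had more than 3 UMIs there. Hbb-bt had 121 UMIs in 10 wells, 120 of them in fetal liver plate 3 and 1 in fetal liver plate 1. Hba-a1 had 6 UMIs in 1 well of bone marrow plate 5, where the kept cells had none, and Hba-a2 had 7 UMIs in 2 wells, 4 in bone marrow plate 4 and 3 in plate 5. Hbb-y, Hbb-bh1 and Hbb-bs had none.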

How the results depend on the processing

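Of 27 alternatives per comparison, Hba-a1 against AGM kept its call in all, from both fetal liver and bone marrow, and Hbb-y kept its 2 calls in 26, losing them without AGM plate 1. Signs turned for Hbb-bt in fetal liver against AGM without fetal liver plates 1 to 3 (-2.75), for Hbb-bt in bone marrow against fetal liver with cells counted in place of UMIs (0.38) and without fetal liver plates 1 to 3 (3.95), for Hba-a2 in bone marrow against fetal liver without bone marrow plates 1 to 3 (-1.21), and for Hba-a1 in that comparison with the stricter cell filter (-0.87), with cells counted (-0.47) and without bone marrow plates 1 to 3 (-0.10); single plates left out gave -0.24 to 1.15 for the last gene. The causes were not tested. No alternative changed how UMIs were split within the alpha pair, so all of them share that limit for Hba-a1. Calls also appeared for Hba-a2 (4 alternatives in fetal liver against AGM, 7 in bone marrow against AGM), Hbb-bh1 (4 and 1), Hbb-bs in fetal liver against AGM (1) and Hbb-bt (5 and 6 against AGM, and 4 in bone marrow against fetal liver).

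Counts of called genes moved. In fetal liver against AGM they were 748, with 2170 by limma, 2218 with only these tissues, 348 with cells counted, 479 without fetal liver plates 4 and 5, and 2186 and 2164 without bone marrow plates 1 to 3 or 4 and 5. In bone marrow against fetal liver they were 732, with 2127 by limma, 331 with only these tissues, 373 and 365 without fetal liver plates 1 to 3 or 4 and 5, and 1718 and 1958 without bone marrow plates 1 to 3 or 4 and 5. In bone marrow against AGM they were 1380, with 3610 by limma, and 2748 and 2466 without bone marrow plates 1 to 3 or 4 and 5. With single plates left out they ran from 181 to 875, 117 to 741 and 329 to 1618, lowest each time without fetal liver plate 4. DESeq2, other size factors, and no low-count filter kept all 3 counts within 1.5 times.

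With plates as libraries and the plate number as a replicate block, 594, 846 and 982 genes were called; the numbers do not pair the plates, and Hbb-bs in bone marrow against AGM was not called under the block (adjusted p = 0.113). The ratio of Hbb-bt between the fetal liver origins was 158 to 162 under 3 alternatives of wells and cells, chosen after seeing the data, and 4.02 with cells counted. Depth limits the shares of cells with a UMI: 25 of 26 moved on thinning or at 2 UMIs. Top-well shares moved in 13 of 39, and levels without the top globin cells in 1 of 13.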
